A study of Mus musculus with 18 samples.

Results

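The genes described here encode 3 families of conjugating enzymes in mouse liver, the UDP-glucuronosyltransferases (*Ugt*), the sulfotransferases (*Sult*) and the cytosolic glutathione S-transferases (*Gst*). Members were taken by gene symbol from the deposited table, without the *Sult2a* genes, which gave 45 of the 15052 genes listed, with 16 *Ugt*, 8 *Sult* and 21 *Gst* genes. Liver RNA had been sequenced from 18 mice of 4 groups, with 4 WT and 5 *Apoe* KO mice among those pair-fed, and 5 WT and 4 *Apoe* KO mice, the latter numbered 1, 2, 4 and 5, among those given EtOH. WT mice were C57BL/6J, and the *Apoe* KO mice, which lack apolipoprotein E in every cell type, came from a commercial germline line. All mice were 10 to 12 weeks old, were labelled female, and took a Lieber-DeCarli liquid diet for 5 days. The EtOH-fed mice then took it with ethanol at 5% (v/v) over 10 days, followed by a gavage of 5 g/kg ethanol on day 11, and were killed 9 h later. The pair-fed mice received an isocaloric control diet and a gavage of 9 g/kg dextrin-maltose.

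These enzymes carry out the conjugation step of detoxification, which makes drugs, hormones and reactive compounds water-soluble for export into bile or blood. *Ugt* enzymes transfer glucuronic acid from UDP-glucuronate, *Sult* enzymes transfer sulfate from the donor PAPS, and *Gst* enzymes couple glutathione to electrophiles such as lipid peroxidation products. The liver is their main site, and many of the genes respond to the nuclear receptors CAR and PXR, to the aryl hydrocarbon receptor or to the oxidant-sensing factor NRF2.

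The values are read counts brought to almost the same total in each mouse, 32267493 to 32292618, and are called scaled read counts below. A difference is a log2 difference of means on the log2(value + 1) scale, and a gene is said to have risen or fallen where limma gave an adjusted p under 0.05 over all 15052 genes. Because the RNA came from whole liver, fewer cells of a type and less RNA per cell cannot be told apart. All 10 hepatocyte markers were in the table, and their summed level, most of it *Alb*, lay between 2618623 and 4349774 in the 18 mice. After EtOH 2 of the 10 rose in WT mice (*Cps1* and *Tat*). In *Apoe* KO mice 1 rose (*Cps1*) and 2 fell (*Fgb* and *Cyp2e1*). Of all genes, 6.19% rose and 6.52% fell in WT mice, and 16.3% rose and 6.92% fell in *Apoe* KO mice. The knocked-out gene itself was listed at 8586 to 108651 in the *Apoe* KO mice and at 611230 to 798431 in the WT mice. Markers of other liver cells moved with the diet as well. Of 7 sinusoidal endothelial markers, 6 rose in each genotype, with sums of 3846 to 5831 in pair-fed and 6820 to 11612 in EtOH-fed mice. In *Apoe* KO mice 7 of 8 stellate cell and 4 of 8 Kupffer cell markers rose as well, whereas in WT mice no stellate cell marker was called by limma (1 at an unadjusted p under 0.05) and 3 Kupffer cell markers fell. Of 6 cholangiocyte markers 2 fell in WT and 1 rose in *Apoe* KO mice. Of 7 lymphocyte markers 1 rose in *Apoe* KO mice, and none of 3 neutrophil markers was called in either genotype (1 at an unadjusted p under 0.05 in WT mice). The part of these cells in the members' differences was not tested. One library went against its label: EtOH-fed *Apoe* KO mouse 1 had 826 for *Xist*, 1077 for *Ddx3y* and 898 for *Eif2s3y*, where the other 17 mice, all labelled female too, had 15227 to 30379 for *Xist* and no more than 118 for *Ddx3y*. Yet mouse 1 had 4628 for *Cyp3a16* and 2154 for *A1bg*, both female-biased in liver, where the rest of its group had 65 to 688 and 78 to 88. Other sex-biased genes went the other way, since the female-biased *Cyp2b9* (143) was lowest and the male-biased *Cyp7b1* (857) highest of the group. These genes were picked after their values were seen. EtOH-fed WT mouse 3 had the highest value of its group in 17 of the 21 *Gst* genes, in 2 of the 16 *Ugt* genes and in 22.6% of all genes, and was highest in all 7 *Gstm* genes. EtOH-fed *Apoe* KO mouse 5 was likewise highest of its group in all 7 *Gstm* genes, in 11 of the 21 *Gst* genes and in 27.1% of all genes, and pair-fed WT mouse 2 in 11 of the 21 and in 24.8%. Results that rest on EtOH-fed *Apoe* KO mouse 1 or EtOH-fed WT mouse 3 are given with and without them.

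The members' levels spread widely when divided by the length of exon that no other gene shares. *Gstm1*, a mu-class transferase, was the highest at 31401 scaled read counts per kb over the 18 mice. It was followed by *Sult1a1*, the phenol sulfotransferase, at 12147, and by *Gsta3*, the main alpha-class gene of mouse liver, at 8775. The glucuronosyltransferases *Ugt2b5* and *Ugt2b36*, which conjugate steroids and drugs, had 8687 and 7819. *Gstp1* had 7741, *Gstt1* 5581, *Ugt3a2* 3711 and *Gstz1*, which isomerizes maleylacetoacetate in tyrosine breakdown, 3696. At the other end were *Ugt1a7c* at 21.2, *Ugt2b38* at 65.2, *Gsta13* at 69.5 and *Sult1e1*, the estrogen sulfotransferase, at 76.4. *Ugt1a1*, the bilirubin transferase, lay between at 1965.

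**Figure D1:**
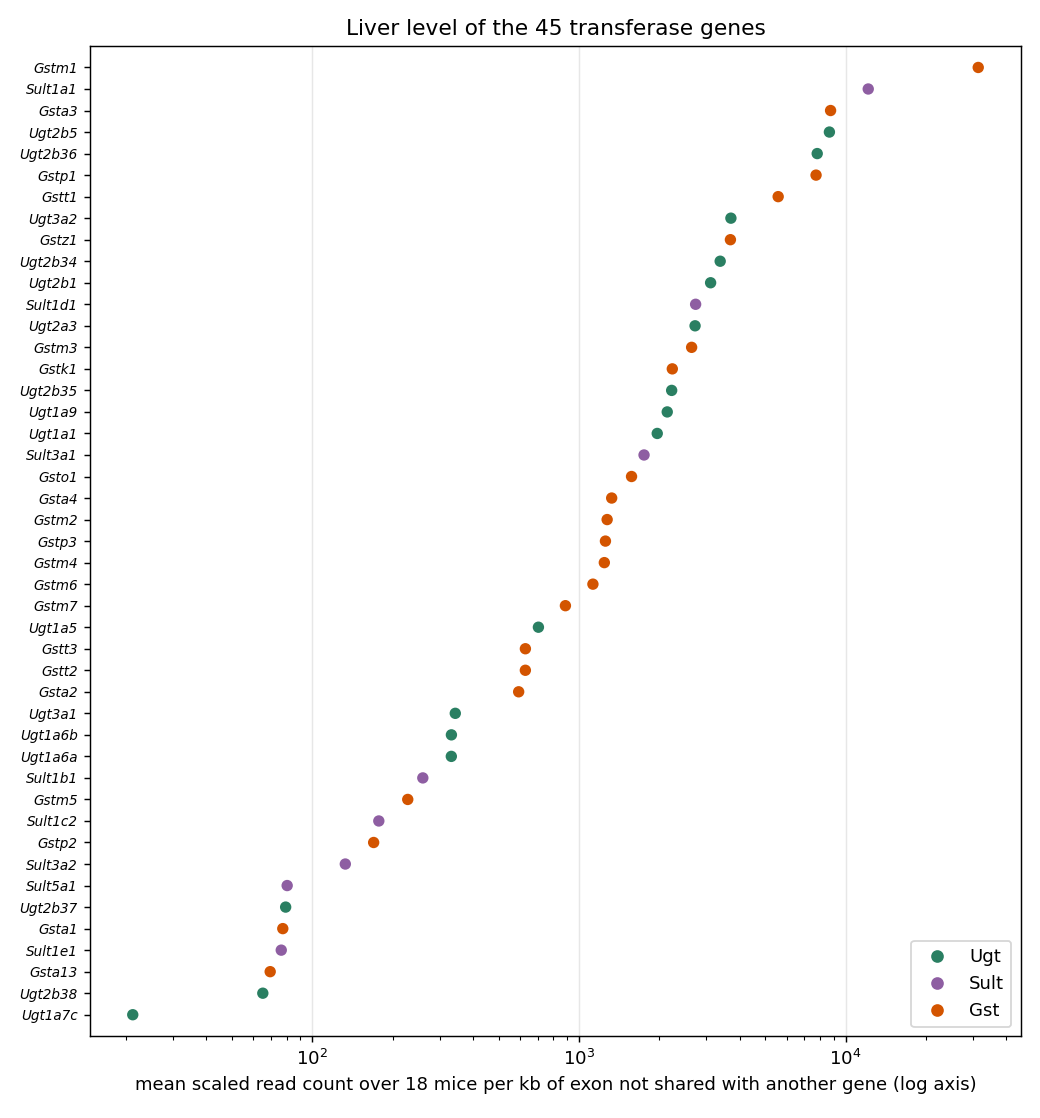
Mean scaled read count over the 18 mice per kb of exon that no other gene shares, on a log axis, with 1 point for each of the 45 genes, coloured by family. *Gstm1* lies at 31401, *Sult1a1* at 12147 and *Ugt1a7c* at 21.2.

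The genes lie in a few clusters in the GRCm38 genome. The 6 *Ugt1a* genes on chromosome 1 (chr1:88070800-88220002) each have a first exon of their own and share the later exons, so that between 39.4% and 49.7% of their exon length was free of another gene. The 8 *Ugt2* genes and 3 *Sult1* genes lie together on chromosome 5, the 7 *Gstm* genes on chromosome 3, and 4 of the 5 *Gsta* genes on chromosome 9. *Gsta3* stands alone on chromosome 1, away from the other *Gsta* genes. Some copies are too alike for reads to be assigned with certainty. Of the 50-base words in the transcripts of *Gsta1*, 90.5% also occurred in another gene. For *Gsta13* this share was 92.5%, for *Gsta2* 49.8%, for *Gstp2* 54.3%, for *Gstp1* 33.7%, for *Ugt1a6b* 79.8% and for *Ugt2b5* 41.7%. It was 0 for *Gstm4*, *Gstp3* and *Sult1b1*, and 0.303% for *Ugt2b35*.

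In WT mice, EtOH feeding changed 14 of the 45 members, of which 6 rose and 8 fell, while 12.7% of all genes were called, 6.19% as higher and 6.52% as lower. The same feeding in *Apoe* KO mice changed 22 members, of which 13 rose and 9 fell, while 23.2% of all genes were called, 16.3% as higher and 6.92% as lower. Under median-of-ratios size factors the *Apoe* KO comparison gave 12 members higher and 12 lower, and its all-gene split moved from 2446 higher and 1042 lower to 1656 and 1607. That scaling lowered the median log2 difference of all genes there from 0.13 to 0.00, and the members' differences are to be read against the 0.13. The 6 members that rose in WT mice, *Gstm3*, *Gstm4*, *Gstp1*, *Sult1a1*, *Ugt1a9* and *Ugt2b35*, were among the 13 that rose in *Apoe* KO mice (100% of the WT list and 46.2% of the KO list). For all genes the shared risers made up 69.2% of the WT list and 26.3% of the KO list. *Sult1b1* and *Ugt1a6a* fell in both genotypes (25.0% of the WT list and 22.2% of the KO list), against 40.0% and 37.6% for all genes. A member called in one genotype alone is not thereby shown to respond differently, and the tests of that difference are given further on.

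**Figure D2:**
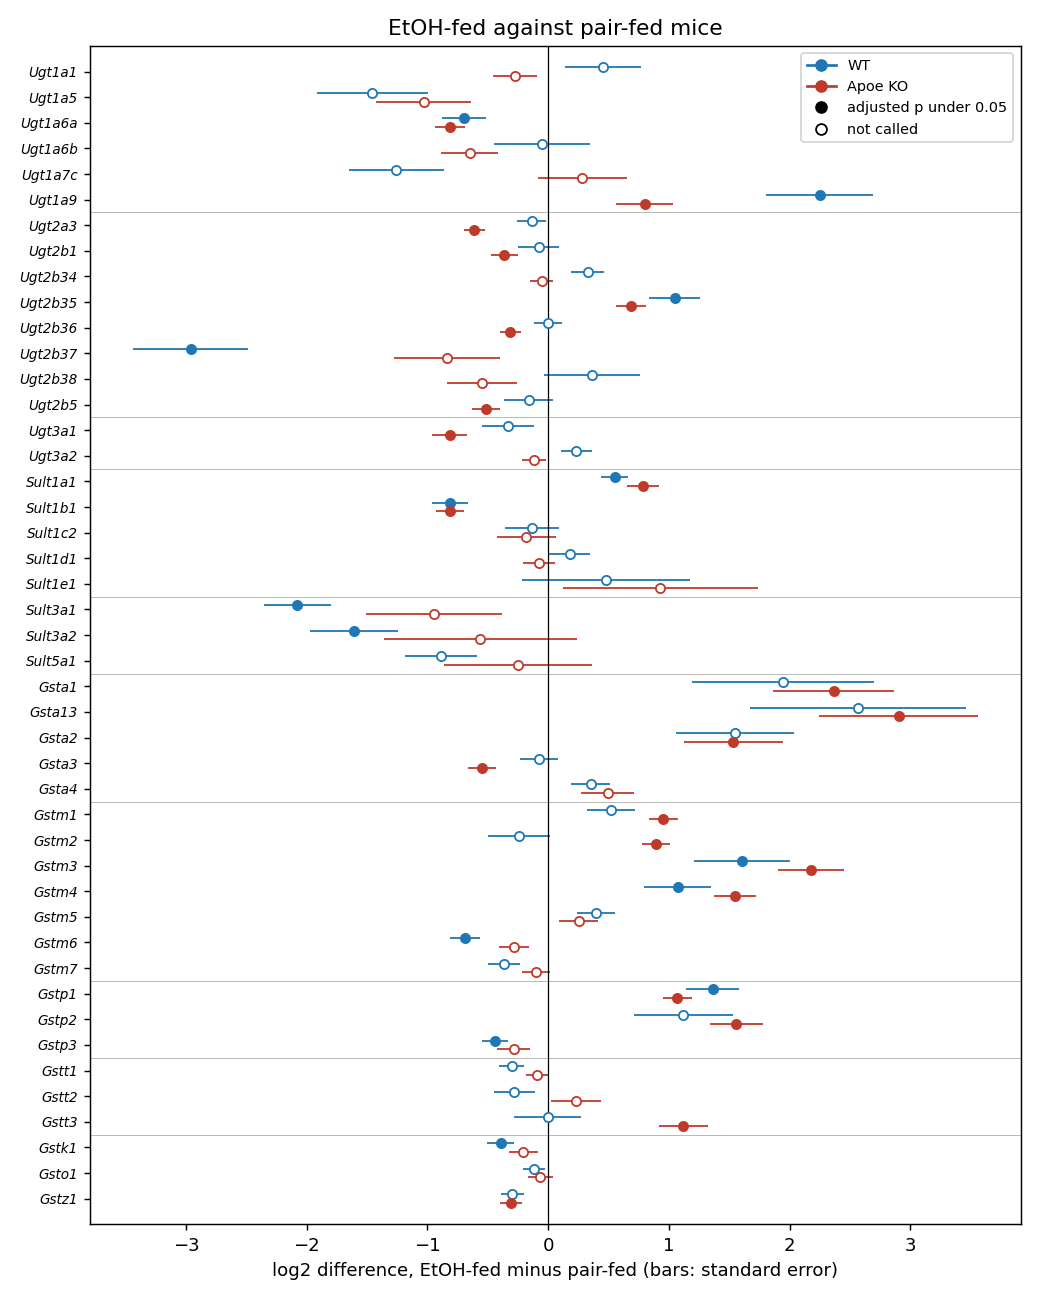
Log2 difference of EtOH-fed minus pair-fed mice for the 45 members, by family, in WT (blue, 5 against 4 mice) and *Apoe* KO mice (red, 4 against 5 mice). Bars are standard errors from limma and filled points have an adjusted p under 0.05, which 14 members reached in WT and 22 in *Apoe* KO mice.

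Among the glucuronosyltransferases, *Ugt1a9* rose most and its neighbours in the same cluster did not follow it. *Ugt1a9*, which conjugates phenols, had 582, 359, 1025 and 166 scaled read counts in the pair-fed WT mice and 2348, 3672, 1548, 2613 and 1089 in the EtOH-fed WT mice. The groups did not overlap, and the log2 difference was 2.25 (SE 0.44, adjusted p = 0.0055). In *Apoe* KO mice it had 1824, 1786, 1961, 2161 and 892 with pair-feeding and 3568, 3662, 2677 and 1953 with EtOH. The groups overlapped by 1 EtOH-fed mouse, and the log2 difference was 0.80 (SE 0.24, adjusted p = 0.028). Its starting level was thus already higher in the pair-fed *Apoe* KO mice than in 3 of the 4 pair-fed WT mice. The KO call was lost without EtOH-fed *Apoe* KO mouse 1 or mouse 2, under size factors and in a fit of all 4 groups, where the log2 difference lay between 0.58 and 0.98 over all alternatives and the highest adjusted p was 0.16.

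*Ugt1a6a*, which conjugates planar phenols and shares the 3' exons of *Ugt1a9*, fell. It had 1199, 1041, 739 and 1067 in pair-fed WT mice against 515, 518, 813, 768 and 523 after EtOH, with a log2 difference of -0.70 (SE 0.18, adjusted p = 0.024) and overlapping groups. This WT call was lost without pair-fed WT mouse 1, 2 or 4, without EtOH-fed WT mouse 1 or 2, and with the mouse number as a block (highest adjusted p 0.077). The block fit kept only mouse numbers found in every group compared, so here it also lacked EtOH-fed WT mouse 5. Its values in *Apoe* KO mice were 815, 812, 840, 661 and 732 against 408, 380, 495 and 473, with no overlap and a log2 difference of -0.82 (SE 0.12, adjusted p = 5.3e-04). The bilirubin transferase *Ugt1a1* was not called in either genotype. Its log2 difference was 0.45 (SE 0.31) in WT and -0.27 (SE 0.18) in *Apoe* KO mice. The remaining *Ugt1a5*, *Ugt1a6b* and *Ugt1a7c* were not called, with log2 differences from -1.45 to -0.05 in WT and from -1.03 to 0.28 in *Apoe* KO mice.

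Promoter sequence of *Ugt1a9* is shown beside that of *Ugt1a1*, since their transcripts share all but the first exon and start from promoters of their own. The RefSeq promoter table (GRCm38.p6) held 300 bases around the start of 40 of the 45 members, 250 before it and 50 from it on. Both promoters hold the letters GTTAAT, any base and then ATT, a pattern of the hepatocyte factor HNF1, on the minus strand of the gene (capitals), at positions -95 to -86 of *Ugt1a9* and -45 to -36 of *Ugt1a1*, with the start at 0. Searched on both strands, the pattern occurred in 0.399% of 32851 promoters and in 3 of the 40 members, *Sult1d1* being the other one. A match is a description of letters. *Ugt1a9* lies at chr1:88070529-88070828 (plus strand) and *Ugt1a1* at chr1:88211709-88212008 (plus strand).
Ugt1a9: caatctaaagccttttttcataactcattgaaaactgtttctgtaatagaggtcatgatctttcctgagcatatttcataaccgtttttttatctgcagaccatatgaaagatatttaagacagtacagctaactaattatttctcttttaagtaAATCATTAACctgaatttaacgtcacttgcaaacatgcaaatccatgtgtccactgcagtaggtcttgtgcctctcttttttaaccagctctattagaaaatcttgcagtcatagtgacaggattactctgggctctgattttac
Ugt1a1: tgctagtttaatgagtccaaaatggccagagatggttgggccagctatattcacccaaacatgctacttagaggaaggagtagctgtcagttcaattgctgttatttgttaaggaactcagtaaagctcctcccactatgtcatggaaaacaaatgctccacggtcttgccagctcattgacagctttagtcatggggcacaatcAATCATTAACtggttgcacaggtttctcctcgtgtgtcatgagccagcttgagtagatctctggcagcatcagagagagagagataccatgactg

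In the *Ugt2* cluster, *Ugt2b35* rose and *Ugt2b37* fell in WT mice. *Ugt2b35* is the 1 gene of the 8 that lies on the plus strand. It had 5140, 4318, 5276 and 2495 in pair-fed WT mice and 8155, 6786, 10942, 7316 and 10369 after EtOH, all above the pair-fed mice, with a log2 difference of 1.05 (SE 0.21, adjusted p = 0.0064). The *Apoe* KO values were 7879, 6719, 5278, 6626 and 5758 with pair-feeding and 9589, 12610, 9862 and 9416 with EtOH, again without overlap (log2 difference 0.69, SE 0.12, adjusted p = 0.0017). *Ugt2b37*, a gene of low level, had 674, 228, 288 and 271 in pair-fed WT mice and 48, 30, 20, 30 and 141 after EtOH. This was a log2 difference of -2.96 (SE 0.48, adjusted p = 0.0018), or 7.79-fold lower. In pair-fed *Apoe* KO mice *Ugt2b37* had 106, 161, 47, 88 and 303, and in EtOH-fed *Apoe* KO mice 108, 57, 53 and 54, so that the groups overlapped (log2 difference -0.84, SE 0.44, adjusted p = 0.19). It shares 18.3% of its 50-base words with other members.

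Of the 8 *Ugt2* genes, *Ugt2b5*, *Ugt2b36*, *Ugt2b1* and *Ugt2a3* fell in *Apoe* KO mice, and these 4 were not called in WT mice. *Ugt2b5* had 20493, 18702, 17361, 18869 and 19616 in pair-fed and 11633, 17468, 12634 and 12200 in EtOH-fed *Apoe* KO mice (log2 difference -0.51, SE 0.12, adjusted p = 0.0070), with 1 EtOH-fed mouse inside the pair-fed range. *Ugt2b36* differed by -0.31 (SE 0.08, adjusted p = 0.017) and *Ugt2b1* by -0.36 (SE 0.11, adjusted p = 0.034). *Ugt2a3*, which is named here after its values were seen, differed by -0.61 (SE 0.09, adjusted p = 3.2e-04), with 6430 to 7660 in pair-fed and 4309 to 4910 in EtOH-fed *Apoe* KO mice. In WT mice these 4 genes had log2 differences of -0.16, -0.00, -0.08 and -0.14. *Ugt2b34*, which is more abundant per kb than *Ugt2b1* and *Ugt2a3*, and *Ugt2b38* were called in neither genotype (log2 difference in *Apoe* KO mice -0.05 and -0.55). The decline of *Ugt2b1* lost its call without EtOH-fed *Apoe* KO mouse 1, 4 or 5, without pair-fed *Apoe* KO mouse 1, 2 or 4, and in the fit of all 4 groups, where the highest adjusted p was 0.11. That of *Ugt2b36* lost it with the mouse number as a block (adjusted p = 0.054).

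The *Ugt3* enzymes transfer other sugars than glucuronic acid. *Ugt3a1* fell in *Apoe* KO mice from 1323, 1062, 1509, 1445 and 1186 to 647, 926, 827 and 588, with a log2 difference of -0.82 (SE 0.15, adjusted p = 0.0018). Its log2 difference in WT mice was -0.33 (SE 0.21, adjusted p = 0.34), with 824, 688, 1386 and 662 against 793, 739, 544, 830 and 531. *Ugt3a2*, which had 3711 per kb where *Ugt3a1* had 344, was called in neither genotype (log2 difference 0.23 in WT and -0.11 in *Apoe* KO mice).

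**Figure D3:**
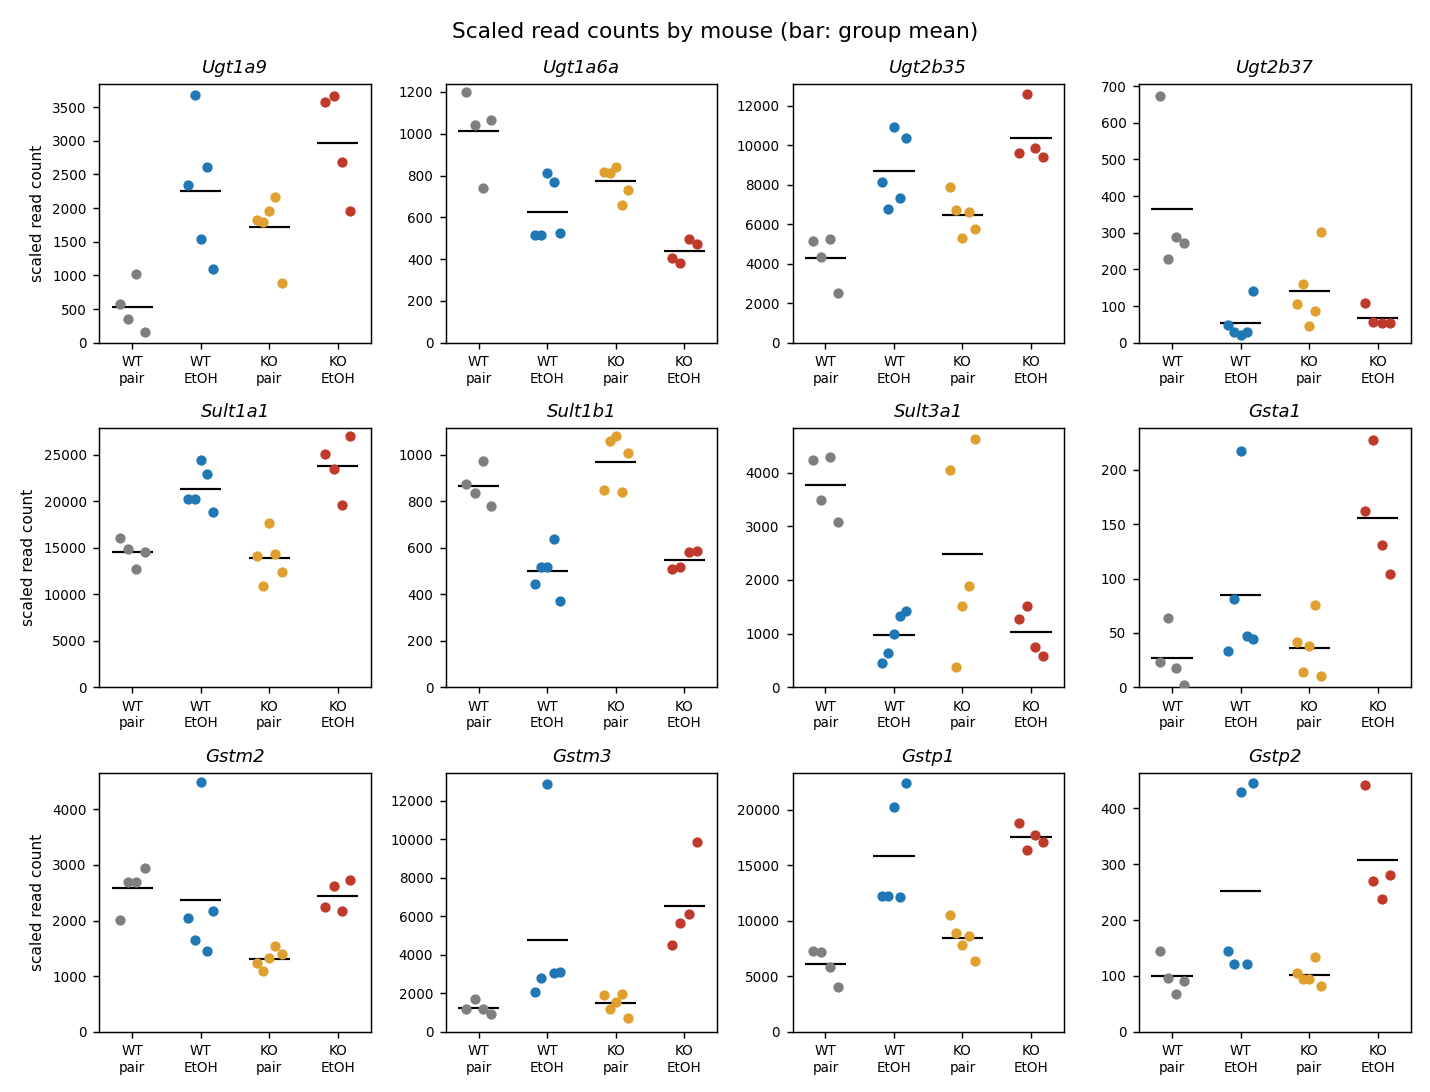
Scaled read counts of 12 members, 1 point per mouse and a bar at the group mean, with WT (pair-fed grey, EtOH-fed blue) left of *Apoe* KO mice (pair-fed orange, EtOH-fed red) and each vertical axis from 0. *Ugt1a9*, *Ugt2b35*, *Sult1a1* and *Gstp1* lie higher and *Sult1b1* lower in EtOH-fed mice of both genotypes.

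Of the sulfotransferases, the most abundant rose and 3 others fell in WT mice. *Sult1a1* had 16065, 14896, 12684 and 14547 in pair-fed WT mice and 20253, 20212, 24473, 22892 and 18887 after EtOH, with a log2 difference of 0.55 (SE 0.11, adjusted p = 0.0075). In *Apoe* KO mice it had 14089, 10941, 17694, 14328 and 12361 against 25080, 23452, 19581 and 27073, with a log2 difference of 0.79 (SE 0.14, adjusted p = 0.0013). The groups did not overlap in either genotype. *Sult1b1*, which sulfates thyroid hormones, moved the other way by the same amount in both genotypes. It had 876, 837, 973 and 778 in pair-fed and 445, 519, 519, 637 and 371 in EtOH-fed WT mice, and 849, 1060, 1079, 840 and 1009 in pair-fed and 508, 518, 581 and 588 in EtOH-fed *Apoe* KO mice. The log2 difference was -0.81 in both (SE 0.15, adjusted p = 0.0040 in WT and SE 0.12, adjusted p = 3.7e-04 in *Apoe* KO mice).

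*Sult1d1*, a catecholamine sulfotransferase that lies between *Sult1b1* and *Sult1e1* on chromosome 5, was called in neither genotype (log2 difference 0.18, SE 0.17 in WT and -0.08, SE 0.13 in *Apoe* KO mice). *Sult1e1* was low and varied between mice of a group. It had 6, 27, 22 and 104 in WT mice with pair-feeding and 32, 16, 101, 21 and 51 with EtOH, and 91, 407, 22, 40 and 26 in *Apoe* KO mice with pair-feeding and 42, 511, 102 and 88 with EtOH. *Sult1c2* was not called and lay between 205 and 549 in the 18 mice.

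*Sult3a1*, an amine sulfotransferase known for its higher level in female mouse liver, fell in WT mice from 4241, 3494, 4281 and 3080 to 453, 643, 992, 1334 and 1414. The groups did not overlap, and the log2 difference was -2.08 (SE 0.28, adjusted p = 5.3e-04), or 4.22-fold lower. Its neighbour *Sult3a2* had 133, 338, 320 and 151 against 45, 53, 64, 75 and 148, with a log2 difference of -1.61 (SE 0.37, adjusted p = 0.012), and lost the call in the fit of all 4 groups (adjusted p = 0.13). In *Apoe* KO mice *Sult3a1* was spread widely within the pair-fed group, at 4049, 387, 1512, 1883 and 4616, and had 1264, 1509, 745 and 577 after EtOH (log2 difference -0.94, SE 0.56, adjusted p = 0.25). The low value of 387 belongs to pair-fed *Apoe* KO mouse 2, which also had the highest *Sult1e1* of its group and, among genes known to differ between male and female liver, 84 for *A1bg* and 11098 for *Cyp2d9*, where the other 4 mice had 696 to 2700 and 2055 to 4630. These 2 genes were picked after their values were seen from 22 sex-biased genes that did not all go one way, since the male-biased *Elovl3* (162) and *Cyp7b1* (809) were lowest of the group in that mouse. Of the 22 genes, 3 rose and 9 fell after EtOH in WT mice, where 6.19% of all genes rose and 6.52% fell. In *Apoe* KO mice 1 rose and 6 fell, where these shares were 16.3% and 6.92%. *Apoe* KO mice had 2 of them higher and 5 lower than WT mice with pair-feeding (all genes 0.87% and 0.86%). With EtOH 2 were higher and 4 lower (all genes 4.25% and 0.45%). *Cyp2b9*, *Cyp2b13* and *Hao2* were lower with both diets, and whether they reflect sex bias was not tested. The *Xist* value of pair-fed *Apoe* KO mouse 2 was 21047. Without that mouse the fall of *Sult3a1* in *Apoe* KO mice was called (log2 difference -1.504, adjusted p = 0.010). The part of these sex-biased genes in the result was not tested. *Sult5a1* was called in neither genotype.

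Of the 5 alpha-class *Gst* genes, *Gsta1*, *Gsta2* and *Gsta13*, whose enzymes act on lipid hydroperoxides, rose in *Apoe* KO mice, *Gsta3* fell there and *Gsta4* was not called. *Gsta2* had 565, 209, 688, 543 and 127 in pair-fed and 920, 1361, 1073 and 834 in EtOH-fed *Apoe* KO mice (log2 difference 1.53, SE 0.41, adjusted p = 0.016). *Gsta1* had 42, 14, 38, 76 and 10 against 162, 227, 131 and 104 (log2 difference 2.37, SE 0.50, adjusted p = 0.0046), and *Gsta13* had 53, 6, 11, 81 and 7 against 111, 189, 168 and 131 (log2 difference 2.90, SE 0.66, adjusted p = 0.0067). All EtOH-fed mice lay above all pair-fed mice in these 3 genes, which cannot be fully told apart by their reads. By an estimate from the spacing of low values, a single read stood for up to 4.10 units in these *Apoe* KO mice (EtOH-fed mouse 4). In pair-fed WT mouse 1 it stood for 5.76 units. In WT mice no *Gsta* gene was called by limma. At an unadjusted p under 0.05 there were 3 of the 5, beside 4236 of the 15052 genes. *Gsta2* there had 271, 554, 378 and 108 against 625, 847, 2197, 343 and 937 (log2 difference 1.55, SE 0.49, adjusted p = 0.054), with the highest value again in EtOH-fed WT mouse 3.

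*Gsta3*, by far the most abundant alpha-class gene, had 45748, 39980, 46277, 46387 and 36128 in pair-fed and 35453, 27283, 26819 and 28145 in EtOH-fed *Apoe* KO mice, without overlap (log2 difference -0.55, SE 0.12, adjusted p = 0.0051). Its log2 difference in WT mice was -0.08 (SE 0.15). *Gsta4*, which removes the lipid peroxidation product 4-hydroxynonenal, was called in neither genotype (log2 difference 0.35, SE 0.16 in WT and 0.49, SE 0.22 in *Apoe* KO mice).

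The mu-class genes of chromosome 3 include the largest amounts of *Gst* RNA, and *Gstm3* and *Gstm4* rose in both genotypes. *Gstm3* had 1187, 1689, 1165 and 945 in pair-fed WT mice and 2094, 2781, 12865, 3058 and 3087 after EtOH, with mouse 3 far above the others and no overlap between groups (log2 difference 1.61, SE 0.40, adjusted p = 0.020). Without that mouse the log2 difference was 1.16 (adjusted p = 0.0018). *Gstm3* in *Apoe* KO mice had 1896, 1209, 1566, 1988 and 714 against 4509, 5676, 6100 and 9859 (log2 difference 2.18, SE 0.28, adjusted p = 1.6e-04).

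*Gstm4* had 1089, 1309, 1239 and 879 against 1550, 1850, 5335, 2326 and 2006 in WT mice (log2 difference 1.07, SE 0.28, adjusted p = 0.024) and 1755, 939, 1127, 1474 and 978 against 3798, 2931, 3603 and 4037 in *Apoe* KO mice (log2 difference 1.55, SE 0.17, adjusted p = 7.0e-05). Without pair-fed WT mouse 4 neither gene passed in WT mice, and *Gstm4* did not without pair-fed WT mouse 1 either, with adjusted p-values up to 0.065 for *Gstm3* and 0.080 for *Gstm4*. *Gstm1*, the most abundant member, rose in *Apoe* KO mice from 34730, 32810, 34081, 35961 and 25627 to 56089, 60319, 65195 and 70540 (log2 difference 0.95, SE 0.12, adjusted p = 1.6e-04). In WT mice it had 41097, 42132, 34949 and 28888 against 39372, 47321, 83325, 45147 and 54978 (log2 difference 0.52, SE 0.20, adjusted p = 0.11), with the groups overlapping.

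*Gstm2* rose in *Apoe* KO mice from 1240, 1095, 1320, 1538 and 1393 to 2242, 2623, 2178 and 2730 (log2 difference 0.89, SE 0.11, adjusted p = 1.7e-04). In WT mice it had 2011, 2690, 2697 and 2942 with pair-feeding and 2052, 1645, 4491, 1457 and 2179 with EtOH, where 4491 belongs to mouse 3 (log2 difference -0.24, SE 0.26). The pair-fed *Apoe* KO mice all lay below the pair-fed WT mice, and 1 of them, at 1538, lay above the lowest EtOH-fed WT mouse. *Gstm6* fell in WT mice from 2674, 2973, 3299 and 2451 to 1537, 1670, 2185, 1704 and 1764 (log2 difference -0.69, SE 0.12, adjusted p = 0.0033), and its log2 difference in *Apoe* KO mice was -0.28 (SE 0.12, adjusted p = 0.12). *Gstm5* and *Gstm7* were called in neither genotype.

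**Figure D4:**
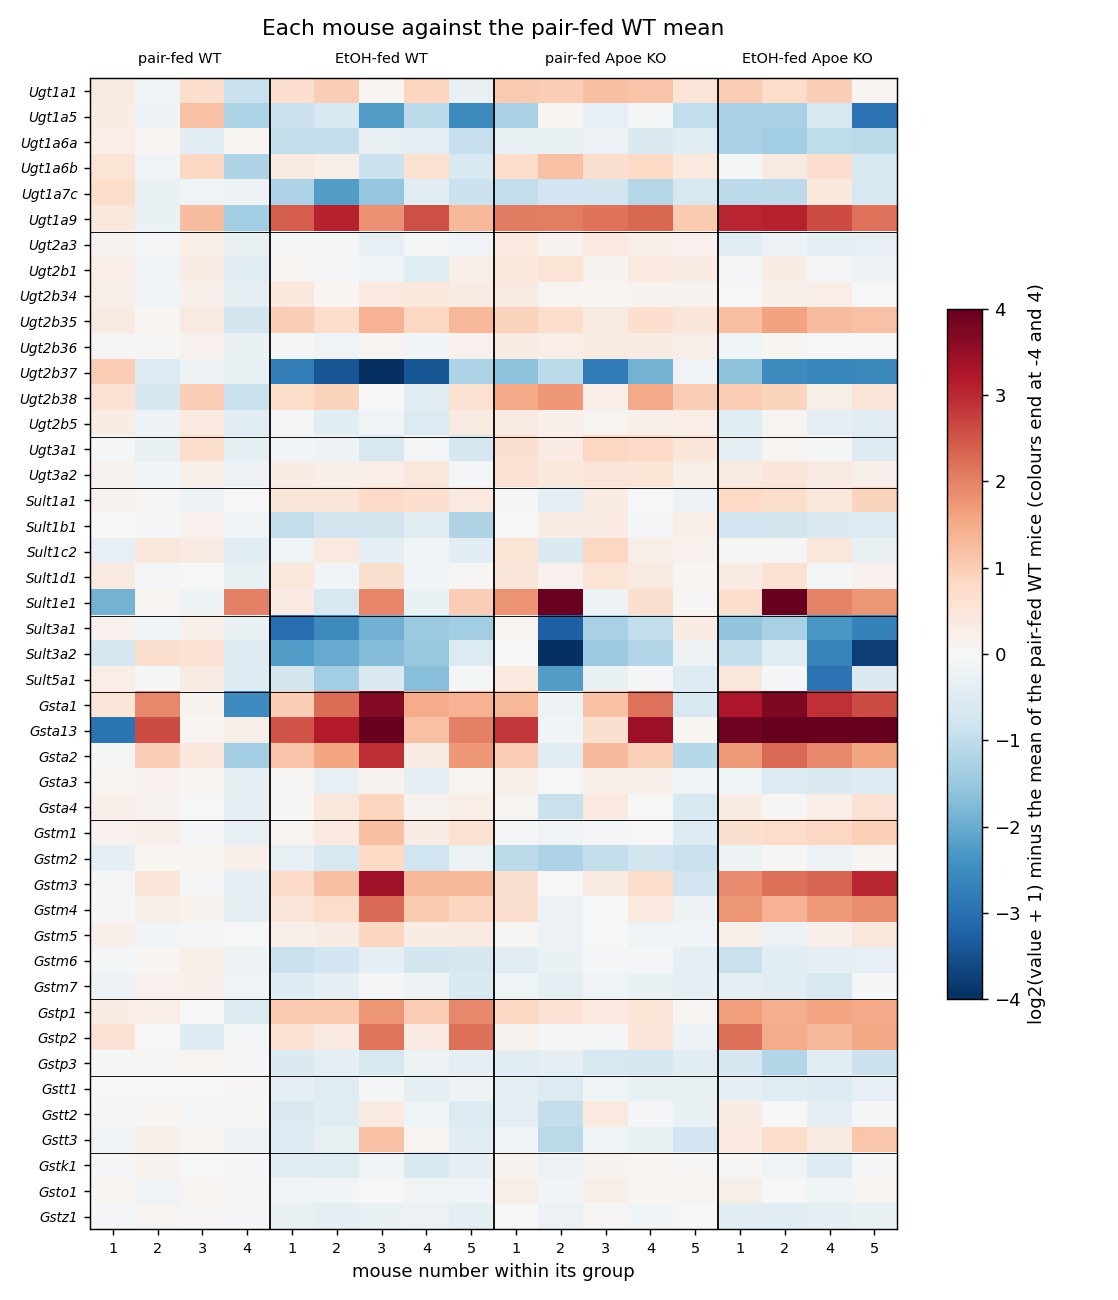
Each of the 45 members (vertical) in each of the 18 mice (horizontal), as log2(value + 1) minus the mean of the pair-fed WT mice, with red above and blue below that mean and colours ending at -4 and 4. EtOH-fed WT mouse 3 is the reddest of its group in the *Gstm* genes, all 7 of which were highest in that mouse, and pair-fed *Apoe* KO mouse 2 the bluest of its group in *Sult3a1* (387).

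The pi-class genes lie side by side on chromosome 19. *Gstp1* rose in both genotypes and *Gstp2* in *Apoe* KO mice, while *Gstp3* fell in WT mice. *Gstp1* had 7318, 7176, 5803 and 4039 in pair-fed WT mice and 12208, 12240, 20238, 12106 and 22416 after EtOH (log2 difference 1.36, SE 0.22, adjusted p = 0.0019). The *Apoe* KO mice had 10506, 8862, 7800, 8612 and 6360 against 18804, 16391, 17763 and 17060 (log2 difference 1.07, SE 0.12, adjusted p = 8.8e-05). The groups were separate in both genotypes, and the calls held without either mouse that stood apart. *Gstp2*, at a far lower level, had 106, 94, 94, 134 and 82 against 442, 270, 237 and 281 in *Apoe* KO mice (log2 difference 1.56, SE 0.22, adjusted p = 3.1e-04). In WT mice it had 144, 97, 67 and 91 against 144, 122, 429, 122 and 445, where mice 3 and 5, which also had the highest *Gstp1*, stood apart from the other 3 (log2 difference 1.12, SE 0.41, adjusted p = 0.090). *Gstp3* fell in WT mice from 1423, 1579, 1631 and 1431 to 1020, 1150, 978, 1311 and 1142 (log2 difference -0.44, SE 0.11, adjusted p = 0.020), a call that was lost without pair-fed WT mouse 2 or 3 and with the mouse number as a block (highest adjusted p 0.066), and was not called in *Apoe* KO mice (log2 difference -0.29, SE 0.14, adjusted p = 0.16).

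The 3 *Gstp* promoters are shown because these neighbours differed in direction in WT mice, where *Gstp1* rose and *Gstp3* fell. *Gstp1* and *Gstp2* hold the letters TGANTCA (capitals), a pattern of AP-1 and related factors that is read on both strands, at positions -74 to -68 and -89 to -83 from the start at 0, in both cases as TGAGTCA. It stands in a run of 34 identical bases. *Gstp3* holds no such letters in this window, and the longest run it shares with *Gstp1* is 8 bases. The pattern occurred in 7.81% of all promoters and in 9 of the 40 members, among them *Ugt2b35* and *Ugt1a6a*, which moved in opposite directions. Of the other patterns searched on both strands, TGACNNNGC, the core of the antioxidant response element, was in 3 of the 40 members and 12.4% of all promoters, and GCGTG, the core of the dioxin response element, in 9 members and 32.4%. The windows are chr19:4037863-4038162 for *Gstp1*, chr19:4042172-4042471 for *Gstp2* and chr19:4059398-4059697 for *Gstp3*, all on the minus strand.
Gstp1: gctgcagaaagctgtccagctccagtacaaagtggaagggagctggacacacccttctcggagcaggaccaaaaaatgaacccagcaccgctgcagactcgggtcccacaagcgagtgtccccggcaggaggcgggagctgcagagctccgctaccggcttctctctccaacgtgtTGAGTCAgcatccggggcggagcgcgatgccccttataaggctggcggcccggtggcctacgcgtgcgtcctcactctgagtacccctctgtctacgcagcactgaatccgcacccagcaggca
Gstp2: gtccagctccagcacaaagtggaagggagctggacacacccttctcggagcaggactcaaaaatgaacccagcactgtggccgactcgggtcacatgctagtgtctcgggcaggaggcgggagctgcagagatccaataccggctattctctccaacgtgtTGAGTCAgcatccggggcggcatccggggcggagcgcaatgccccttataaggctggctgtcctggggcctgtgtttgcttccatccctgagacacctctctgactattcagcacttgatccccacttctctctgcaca
Gstp3: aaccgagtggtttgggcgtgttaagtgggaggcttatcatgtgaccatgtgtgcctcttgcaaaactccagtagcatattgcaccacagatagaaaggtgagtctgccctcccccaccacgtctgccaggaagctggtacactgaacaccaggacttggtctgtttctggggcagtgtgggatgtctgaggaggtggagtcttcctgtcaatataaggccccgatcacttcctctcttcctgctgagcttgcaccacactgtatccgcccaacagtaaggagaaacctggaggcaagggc

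Of the theta-class genes, *Gstt3* rose in *Apoe* KO mice from 1759, 908, 1725, 1557 and 1133 to 2492, 3163, 2465 and 4087 (log2 difference 1.12, SE 0.20, adjusted p = 0.0017). In WT mice it had 1717, 2258, 2077 and 1657 against 1347, 1540, 4264, 2046 and 1387 (log2 difference -0.00, SE 0.28). It shares 12.2% of its 50-base words with *Gm20441*. *Gstt1* and *Gstt2* were called in neither genotype with all mice, and both fell in WT mice without EtOH-fed mouse 3 (log2 difference -0.37, adjusted p = 0.035 for *Gstt1* and -0.44, adjusted p = 0.027 for *Gstt2*). The remaining genes moved little. *Gstz1* fell in *Apoe* KO mice from 21001, 17914, 22059, 19520 and 21364 to 15519, 15974, 16347 and 17749 (log2 difference -0.31, SE 0.09, adjusted p = 0.026), and had nearly the same log2 difference, -0.30 (SE 0.10, adjusted p = 0.058), in WT mice. *Gstk1*, the mitochondrial and peroxisomal transferase, fell in WT mice from 3394, 3917, 3602 and 3364 to 2614, 2569, 3329, 2345 and 2791 (log2 difference -0.39, SE 0.11, adjusted p = 0.034). The call of *Gstz1* was lost without pair-fed *Apoe* KO mouse 1, 3 or 5 and without EtOH-fed *Apoe* KO mouse 1, 2 or 4, and that of *Gstk1* without any pair-fed WT mouse and without EtOH-fed WT mouse 1, 2 or 4 (highest adjusted p 0.065 and 0.105), and both were lost with the mouse number as a block. *Gsto1* was not called.

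By family, 10 of the 21 *Gst* genes rose and 2 fell in *Apoe* KO mice, with a median log2 difference of 0.49 over the 21 genes, beside 0.13 over all genes. In WT mice 3 rose and 3 fell, with medians of -0.00 for *Gst* and -0.01 for all genes. Of the 16 *Ugt* genes, 2 rose and 6 fell in *Apoe* KO mice (median -0.44), and 2 rose and 2 fell in WT mice (median -0.06). Of the 8 *Sult* genes, 1 rose and 1 fell in *Apoe* KO mice (median -0.22), and 1 rose and 3 fell in WT mice (median -0.47). Of all genes, 16.3% rose and 6.92% fell in *Apoe* KO mice, and 6.19% rose and 6.52% fell in WT mice. The risers in *Apoe* KO mice made up 12.5% of the *Ugt* and 12.5% of the *Sult* genes, below the share of all genes. Under size factors the *Apoe* KO counts were 10 higher and 4 lower for *Gst* (median 0.37) and 1 higher and 7 lower for *Ugt* (median -0.56), and the *Gst* median in WT mice was 0.01. Without EtOH-fed *Apoe* KO mouse 1, 19 members were called in *Apoe* KO mice, 12 higher and 7 lower. All genes called there were 3320, 2377 higher and 943 lower. Without EtOH-fed WT mouse 3, 16 members were called in WT mice, 6 higher and 10 lower, beside 1529 of all genes, 708 higher and 821 lower. The summed scaled read counts of the 21 *Gst* genes were 117832 to 153907 in WT mice with pair-feeding and 138003 to 223482 with EtOH, and 117603 to 144530 in *Apoe* KO mice with pair-feeding and 158736 to 180392 with EtOH, so that the EtOH-fed *Apoe* KO mice were all above their pair-fed counterparts. The *Ugt* sums overlapped, at 58578 to 93268, 77553 to 91293, 90177 to 103469 and 76529 to 96225 in the same order. The *Gst* sums rest mostly on the abundant genes and do not stand for the family as a whole. In *Apoe* KO mice the mean of *Gstm1* went from 32642 with pair-feeding to 63036 with EtOH, and that of *Gstp1* from 8428 to 17504.5. Those of *Gsta3* and *Gstz1* went from 42904 to 29425 and from 20372 to 16397.

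Few members were called between genotypes. In pair-fed mice 3 of the 45 were called, 1 higher and 2 lower in *Apoe* KO mice, where 1.73% of all genes were called. *Gstm2* was lower in the *Apoe* KO mice with the values given above and no overlap (log2 difference -0.97, SE 0.13, adjusted p = 0.0013), and kept its call under every alternative tried. *Gstp3* was lower too, at 1130, 1157, 971, 933 and 1135 against 1423, 1579, 1631 and 1431 (log2 difference -0.51, SE 0.10, adjusted p = 0.022). *Ugt1a9* was higher (log2 difference 1.92, SE 0.40, adjusted p = 0.027). At an unadjusted p under 0.05 there were 21 of the 45 members, beside 2991 of the 15052 genes. Of the 16 *Ugt* genes, 13 were below that p and only *Ugt1a9* passed the adjustment. The pair-fed WT mice were uneven in these genes, since mouse 3 was the highest of the 4 in 12 of the 16 *Ugt* genes and in 16.5% of all genes. Without mouse 3 the pair-fed comparison called 8 members, 5 higher and 3 lower, beside 670 of all genes, 362 higher and 308 lower. Without pair-fed WT mouse 2 or pair-fed *Apoe* KO mouse 3 or 4 it called *Gstm2* alone among the members. *Ugt1a9* also lost its call without pair-fed WT mouse 4 or pair-fed *Apoe* KO mouse 1, and the highest adjusted p was 0.0997 for *Ugt1a9* and 0.078 for *Gstp3*.

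**Figure D5:**
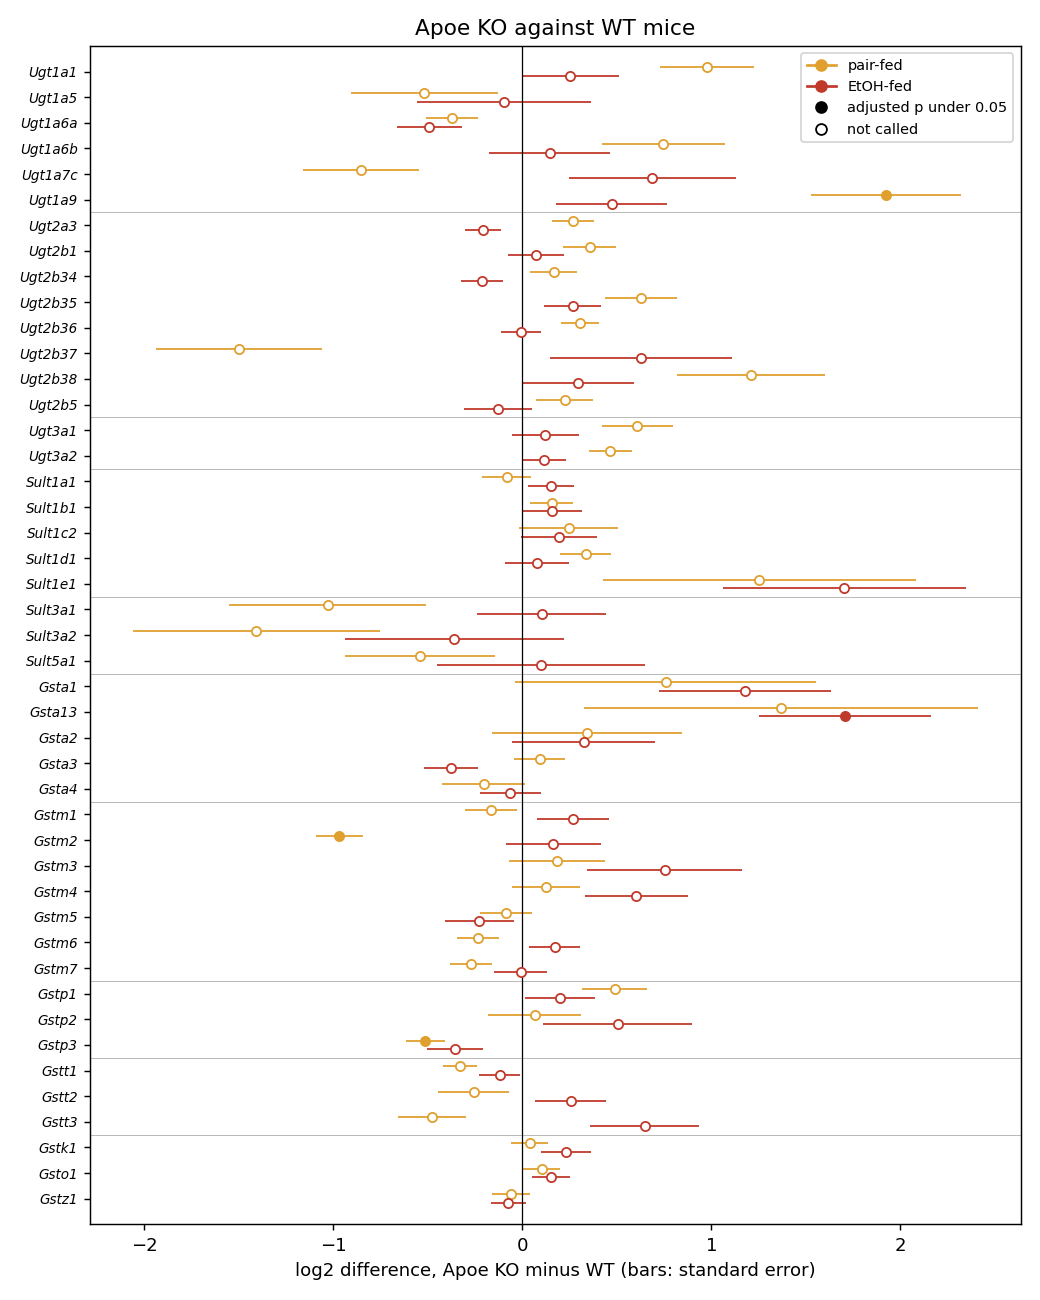
Log2 difference of *Apoe* KO minus WT mice for the 45 members, by family, in pair-fed (orange, 5 against 4 mice) and EtOH-fed mice (red, 4 against 5 mice). Bars are standard errors from limma and filled points have an adjusted p under 0.05, which 3 members reached in pair-fed mice and 1 in EtOH-fed mice.

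In EtOH-fed mice 1 member was called, *Gsta13*, which was higher in *Apoe* KO mice at 111, 189, 168 and 131 against 43, 67, 119, 16 and 30 (log2 difference 1.71, SE 0.45, adjusted p = 0.049), where 4.69% of all genes were called. The groups overlapped by EtOH-fed WT mouse 3, and the call held only with a pseudocount of 10, with the mouse number as a block and without EtOH-fed WT mouse 3. Under size factors *Ugt1a6a* was called instead, as lower in *Apoe* KO mice. Of the 45 members, 9 had an unadjusted p under 0.05, beside 2845 of the 15052 genes. Size factors turned the all-gene split from 639 higher and 67 lower to 380 and 126, with the median log2 difference of all genes moving from 0.11 to -0.02. Without EtOH-fed WT mouse 3, 5 members were called, all higher in *Apoe* KO mice. Of all genes 578 were called in that fit, 520 higher and 58 lower. The 5 members were *Gsta1* (log2 difference 1.60), *Gsta13* (2.06), *Gstm3* (1.202), *Gstm4* (0.90) and *Gstt3* (0.94). Without that mouse and without EtOH-fed *Apoe* KO mouse 1, these 5 and *Sult1e1* (2.56) were called. All genes called there were 511, 460 higher and 51 lower. In this comparison all 8 Kupffer cell and macrophage markers rose, with summed levels of 5501 to 10134 in the WT and 13140 to 24698 in the *Apoe* KO mice, and 3 of 8 stellate cell markers rose, with sums of 11578 to 18902 and 21519 to 39505. No hepatocyte marker of 10 was called by limma (1 at an unadjusted p under 0.05). The part of these cells in the members' differences was not tested.

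The response to EtOH was compared between genotypes by the interaction of diet and genotype over all 18 mice. It was called for *Gstm2* alone among the members (log2 difference of differences 1.13, SE 0.31, adjusted p = 0.0498), where 2.84% of all genes were called, 392 with a positive and 36 with a negative value, or 294 and 84 under size factors. The other 44 members did not pass, and 11 of the 45 had an unadjusted p under 0.05, beside 2451 of the 15052 genes. Without EtOH-fed WT mouse 3 the value for *Gstm2* was 1.39 (adjusted p = 0.0017) and *Gstt3* was called as well, at 1.42 (adjusted p = 0.012). Without both mice that stood apart, *Gstm6* was called too, at 0.61 (adjusted p = 0.037). *Gstm2* was not called under size factors, with a pseudocount of 0.1 or with the filter on low values, nor without most single mice. Without pair-fed WT mouse 3 the called members were *Ugt1a9* and *Ugt2a3*, and without EtOH-fed WT mouse 5 *Ugt2b37*. For *Ugt1a9*, *Ugt2b37* and *Ugt2a3* the interaction was -1.45 (SE 0.56, adjusted p = 0.18), 2.12 (SE 0.71, adjusted p = 0.12) and -0.47 (SE 0.14, adjusted p = 0.083).

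Genes that serve these enzymes are given as counts, to be read against the 6.19% of all genes called higher and 6.52% called lower in WT mice, and the 16.3% and 6.92% in *Apoe* KO mice. Of 8 genes for UDP-glucuronate, 3 rose and 1 fell in WT mice and 3 rose and 3 fell in *Apoe* KO mice. *Ugdh*, which oxidizes UDP-glucose to UDP-glucuronate, had 3285, 3201, 3866 and 2273 in WT mice with pair-feeding and 5456, 3899, 6571, 3886 and 6087 with EtOH, and 4986, 3393, 3960, 5135 and 3320 in *Apoe* KO mice with pair-feeding and 10272, 12064, 9780 and 8820 with EtOH. With EtOH it differed by 0.71 (SE 0.18, adjusted p = 0.024) in WT and 1.31 (SE 0.14, adjusted p = 5.9e-05) in *Apoe* KO mice, and it was higher in *Apoe* KO than in WT mice after EtOH by 1.01 (SE 0.16, adjusted p = 0.0048). *Ugp2*, which makes UDP-glucose, rose by 0.72 in WT and 0.47 in *Apoe* KO mice. Of 8 genes for the sulfate donor, *Papss2*, which makes PAPS, fell in both genotypes (log2 difference -0.80 and -0.57), and *Slc13a4*, a sulfate carrier, fell in *Apoe* KO mice.

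Of 13 genes for glutathione, 4 rose in WT mice (all genes 6.19%), with *Cth* at 1.14, *Gclc*, a subunit of the rate-limiting ligase, at 0.97, *Gss*, glutathione synthetase, at 0.63 and *Cbs* at 0.56. Among *Apoe* KO mice 3 rose (all genes 16.3%), with *Ggt5* at 0.77, *Gss* at 0.50 and the reductase *Gsr* at 0.45, and 2 fell, with *Chac2* at -0.72 and *Gclm*, the other subunit of that ligase, at -0.29. Among 14 transporters of conjugates, the basolateral exporters *Abcc4* (2.54 in WT and 2.28 in *Apoe* KO mice) and *Abcc3* (0.61 and 0.46) and the carrier *Slc22a7* (0.99 and 0.60) rose in both genotypes, and *Slco1a1*, an uptake carrier, fell in both (-1.58 and -3.17). *Abcc2*, the exporter into bile, and *Slco1b2* fell in *Apoe* KO mice (-0.28 and -0.76). None of 11 membrane-bound and other *Gst*-related genes outside the 3 families was called by limma in WT mice. At an unadjusted p under 0.05 there were 3 of these, beside 4236 of the 15052 genes. In *Apoe* KO mice 3 of the 11 rose and 1 fell. Of 11 genes that cleave or further process conjugates, 3 rose and 1 fell in WT mice, and 5 rose and 2 fell in *Apoe* KO mice. Of 18 other conjugating enzymes, 2 rose and 3 fell in WT mice, and 1 rose and 6 fell in *Apoe* KO mice. All these counts stand beside 6.19% of all genes higher and 6.52% lower in WT mice, and 16.3% and 6.92% in *Apoe* KO mice.

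Of 15 regulators, 4 fell in WT mice and 5 in *Apoe* KO mice, where 6.52% and 6.92% of all genes fell. *Nr1i3*, which encodes CAR, fell in both (log2 difference -0.61 and -0.69), as did *Ppara* (-0.69 and -0.65). *Foxa1* and *Foxa2* fell in WT mice (-0.61 and -0.47), and *Rxra*, *Cebpa* and *Nr1i2*, which encodes PXR, fell in *Apoe* KO mice (-0.43, -0.38 and -0.36). Of 16 target genes of these receptors and of NRF2 outside the 3 families, 7 rose in WT and 6 in *Apoe* KO mice, where 6.19% and 16.3% of all genes rose, and none was called lower by limma in either. *Hmox1* and *Srxn1*, known NRF2 targets, rose in both (2.44 and 2.02 in WT, 2.91 and 2.28 in *Apoe* KO mice), and *Nqo1* in *Apoe* KO mice (0.94). *Cyp2b10*, the best known CAR target, had 161, 91, 116 and 32 in pair-fed and 3133, 4981, 20780, 6586 and 2731 in EtOH-fed WT mice, the highest again in mouse 3, and 125, 449, 512 and 907 in EtOH-fed *Apoe* KO mice. It rose by 6.02 in WT mice and was lower in *Apoe* KO than in WT mice after EtOH (log2 difference -3.81, SE 0.58, adjusted p = 0.0033). Pair-fed *Apoe* KO mice had 455, 38, 120, 333 and 27, and its interaction of diet and genotype was -4.21. *Cyp2b9* and *Cyp2b13*, from the sex-biased genes above, were already lower in pair-fed *Apoe* KO mice. They had 104 to 1254 and 52 to 648 there, against 9986 to 11946 and 3947 to 8633 in pair-fed WT mice. Whether *Cyp2b10* tracks CAR in the *Apoe* KO mice was not tested. *Hmox1* and *Srxn1* went the other way between genotypes after EtOH and were higher in the *Apoe* KO mice (1.49, SE 0.32, adjusted p = 0.019 and 0.88, SE 0.19, adjusted p = 0.022). The comparisons of diet and of genotype share mice, so that their counts are not independent of each other.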

How the data were processed

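Liver polyA RNA of 18 mice was sequenced. Per the study's methods and the submitters' processing notes, reads were checked with FastQC, trimmed with Trimmomatic, aligned to GRCm38 with HISAT2, handled with SAMtools and counted per gene with featureCounts, and DESeq2 was used by the authors. Versions, strand and the treatment of reads with several matches were not given in the sources used here. The deposited signal per gene and mouse is a whole number made by the authors from a read count by scaling to almost the same total in every mouse, so that a test for raw counts could not be the main one. Columns with the authors' own means, fold changes, standard errors, p-values and ranks were not used. From the spacing of low values, depth could be estimated for 16 of the 18 mice, at 5.60 to 52.2 M reads, and low genes are less precise in the shallow libraries.

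Repeated lines were reduced to 1 per Ensembl gene. Differences were fitted with limma 3.58.1 (R 4.3.3, trended variance) on log2(value + 1), two-sided, with Benjamini-Hochberg adjustment over all 15052 genes and no filter. Each comparison used the mice of its 2 groups, and the interaction all 18. The fit was tested on simulated data first. Mice are separate animals, numbered as in the labels. Each fit was repeated with median-of-ratios size factors, pseudocounts of 0.1 and 10, a mean of at least 100, sample quality weights, the mouse number as a block, all 4 groups in the fit, and each mouse left out in turn. The block fit kept only mouse numbers found in every group compared, and so used 8 mice per comparison and 12 for the interaction. Leaving out EtOH-fed WT mouse 3 together with EtOH-fed *Apoe* KO mouse 1 was added after the data were seen. Positions and exon lengths came from GENCODE M21 and promoters from RefSeq. Members are named where called (at most 12 per comparison, by size), where among the 2 most abundant of a subfamily, or from a fixed list. *Ugt1a5*, *Ugt1a6b*, *Ugt1a7c*, *Ugt2a3*, *Ugt2b34*, *Ugt2b38*, *Gstm5*, *Gstm7*, *Gsto1* and *Sult1c2*, where the rule does not name them, were named after their values were seen, as were the libraries that stand apart. The members and gene lists were chosen with earlier results of these data known. The labels call all mice female, and the study's methods name both sexes.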

Additional observations from a re-analysis of the deposited data

Results flagged for a closer look

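In 12 of 180 sets of values (45 genes in 4 groups), 1 mouse lay so far from the rest of its group that its gap to the nearest other mouse took up most of the group's range, and chance gives about 1 in 20, or 9. EtOH-fed WT mouse 3 was far above its group in *Gstm3* (12865, gap share 0.7862 of the range of log2(value + 1)) and *Gstm5* (477, 0.8135). Pair-fed WT mouse 4 was low in *Gsta3* (31117, 0.8293) and lay apart in *Gstt1* (10570, 0.902), and pair-fed WT mouse 1 lay apart in *Ugt1a7c* (98, 0.8873). Pair-fed *Apoe* KO mouse 5 was low in *Gstm1* (25627, 0.7293) and *Ugt1a9* (892, 0.7846), mouse 1 lay apart in *Ugt2b34* (16550, 0.7768) and mouse 2 in *Gstk1* (3042, 0.761). EtOH-fed WT mouse 2 lay apart in *Ugt2b34* (13500, 0.7567). In EtOH-fed *Apoe* KO mice, mouse 2 was high in *Ugt2b35* (12610, 0.8416) and mouse 1 in *Ugt2b37* (108, 0.8983).

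The response of *Gstm2* to EtOH differed between genotypes in the test of that difference (log2 difference of differences 1.13, limma adjusted p = 0.0498, all 18 mice). The call was lost under size factors, with a pseudocount of 0.1, with the filter on low values and without 15 of the 18 mice when each was left out, with adjusted p-values up to 0.129.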

How the results depend on the processing

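The count of members called after EtOH stayed within 1.5 times of the 14 in WT and the 22 in *Apoe* KO mice under every alternative tried, with 11 to 16 and 19 to 23 when 1 mouse was left out. The genotype and interaction counts were small and moved, and the cause was not tested. In EtOH-fed mice 1 member was called, against 0 with a pseudocount of 0.1, a mean of at least 100, sample quality weights or all 4 groups, and 6 without EtOH-fed WT mouse 3 and EtOH-fed *Apoe* KO mouse 1; leaving out 1 mouse gave 0 to 5. In pair-fed mice it was 3, against 6 with sample quality weights and 1 to 8 with 1 mouse left out. For the interaction it was 1, against 0 with size factors, a pseudocount of 0.1 or a mean of at least 100, 2 with weights, 3 without both mice, and 0 to 2 with 1 mouse left out. With the mouse number as a block, 6 members were called in EtOH-fed mice, 7 in pair-fed mice and 4 for the interaction. These fits lacked EtOH-fed WT mouse 3 and pair-fed *Apoe* KO mouse 5, and that of the interaction used 12 mice. The counts thus mix the block with the loss of mice. Same-numbered mice did not deviate together in every pair (lowest correlation -0.22 and highest 0.23), so that the numbers are not taken to pair the mice. Between genotypes in EtOH-fed mice the correlations of same-numbered mice were the highest, with a mean of 0.13 over 4 pairs. Mice of unlike number had a mean of -0.03 there. These correlations do not settle whether the EtOH-fed mice were paired.

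The 41 member results called in the main fits were followed through 663 alternative values. Of these, 585 kept direction and call, 78 kept direction alone and 0 turned. Because the 41 were taken for having passed and the alternatives use the same mice, a kept direction is weak evidence. The call was kept under every alternative for 27 of the 41. Over all genes, the pair-fed comparison called 261 genes, 456 with weights, 392 with the block, 73 without pair-fed WT mouse 2 and 670 without pair-fed WT mouse 3. The EtOH-fed comparison called 706, 1083 with the block and 327 without EtOH-fed WT mouse 1. The interaction called 428, and 167 without pair-fed WT mouse 4. The WT diet comparison called 1912, and 1186 without pair-fed WT mouse 2. Size factors moved the interaction's split from 392 higher and 36 lower to 294 and 84.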
